A study of Mus musculus with 10 samples.

Results

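The genes described here are the clustered histone genes of the mouse, which code for linker histone H1 and for core histones H2A, H2B, H3 and H4. They were chosen by name: a gene belonged if it was listed as protein coding and its symbol began with H1f1 to H1f5, H2ac, H2bc, H3c, H4c or one of the older Hist1h to Hist4h stems. This gave 64 of the 57825 listed genes, of which 50 had a mean of at least 0.1 FPKM (fragments per kilobase of gene, scaled to the size of the library) over the 10 samples. The 50 were 6 H1, 11 H2A, 14 H2B, 8 H3 and 11 H4 genes. Of the other 14, 7 lay above 0 and below 0.1 FPKM, and 7 (H2ac1, H2ac18, H2ac19, H2bc1, H2bc18, H3c13 and H3c14) were at 0 in every sample. At the threshold, H2ac6 lay just outside with a mean of 0.0983 FPKM, and H2ac10 and H2bc13 just inside with 0.104 and 0.109 FPKM. Of the 64, 53 were listed on chromosome 13, in a stretch of 23 genes and a stretch of 30 genes separated by 1487374 bases, and 10 lay in a single stretch on chromosome 3. The remaining one, H1f10 on chromosome 6, entered because its symbol begins with H1f1. It is known as a linker histone made outside S phase from an mRNA with a poly(A) tail and lies in neither cluster, so 63 genes fit the label, and H1f10 is marked as an exception below.

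Clustered histone genes supply the bulk of histone protein while DNA is copied, and in cycling cells their transcription is bound to S phase. Their mRNAs as a rule have no introns and no poly(A) tail. They end instead just after a short stem-loop that is bound by the stem-loop binding protein SLBP, and cleavage there needs the U7 small nuclear ribonucleoprotein. When cells leave the cycle, some of these genes, H1f2 and several H2B genes among them, can also give longer, polyadenylated transcripts that end further downstream. H2A, H2B, H3 and H4 form the core of the nucleosome, and H1 binds the DNA between cores.

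RNA was measured in CD8+ T cells that had been taken from the spleens of female Balb/c mice, activated on anti-CD3 with anti-CD28 and IL-2, and co-cultured with 4T1 cells, a mouse mammary carcinoma line. The 5 CD8+4T1 samples received no acetate, and the 5 CD8+4T1+NaAc samples received sodium acetate at 5 mM for 24 h before a co-culture of 48 h, all being sampled at day 3. The mice of the study were 7 to 8 weeks old, and activation took 12 h. The comparison asks how acetate altered transcription in T cells facing tumour cells, and the labels do not say whether the replicates came from separate mice, so p-values measure the spread between these samples, which may be technical.

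The stem-loops of the members on which the results turn are shown because they define how these mRNAs normally end. Each line gives the 16-base stem-loop in capitals with up to 5 flanking bases on either side, read 5′ to 3′ from the mouse gene models of GENCODE release M21.

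H1f2: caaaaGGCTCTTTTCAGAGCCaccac

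H2bc8: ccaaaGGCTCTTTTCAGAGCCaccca

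H2ac23: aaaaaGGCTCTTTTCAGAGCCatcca

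H4c4: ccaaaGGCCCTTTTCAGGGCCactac

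H3c8: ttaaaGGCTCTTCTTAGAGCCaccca

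H4c9: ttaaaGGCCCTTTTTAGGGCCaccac

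A stem-loop of this kind was found in a transcript of 42 of the 64 members, against 107 of 21901 protein-coding genes in all (0.489%), and in the gene model used here for 41 of the 64. The form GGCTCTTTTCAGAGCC occurred in 23 members, of classes H1, H2A, H2B and H3. The 11 H4 genes with a stem-loop had other stems, most often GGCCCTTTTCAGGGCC with 6 genes. H3c8 and H4c9 are shown for stems or loops that differ from these 2 forms. H1f2 and H2bc8, which rose, and H2ac23, which fell, have identical stem-loops, while H4c4, which also fell, has the commonest H4 form.

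The gene models differ in where they end, and this sets which RNA can be counted for a gene. Of the 64 models, 22 ended within 100 bases after the stem-loop, 19 ran further, 11 held the coding length only, and 12 had no stem-loop. The H1f2 model ran for 840 bases past its stem-loop, and its last 30 bases hold a polyadenylation signal (AATAAA, in capitals) that starts 26 bases before the end.

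H1f2 end: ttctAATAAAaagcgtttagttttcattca

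H2bc21 end: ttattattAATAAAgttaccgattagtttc

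H1f10 end: ctggggcgcAATAAAcggttccaaccttga

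H2bc21 and H1f10 are shown beside it as further models that end at such a signal. Within 40 bases of the end, 9 of the 64 models had AATAAA, that of H2ac8 among them. The H2bc8 model ran for 155 bases past its stem-loop, that of H4c4 for 770 and that of H2ac23 for 31. The H2bc4 model has 2 exons and no stem-loop.

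Near-identical copies and overlapping genes limit what can be said of a single gene. The share of a model's 100-base windows that also occur in another gene was over 50% for 28 of the 64 members and 0% for 5. It was 5.07% for H1f2, 25.4% for H2bc4, 44.9% for H2bc8, 92.7% for H2ac23 and 0% for H4c4. The 5 members with every window shared (H2ac18, H2ac19, H2bc18, H3c13 and H3c14) were all at 0 FPKM. Each of the 5 lies wholly within a long noncoding RNA gene listed at the same place. Such an overlap alone makes windows count as shared, with or without a copy elsewhere. How fragments that fit several genes were counted is not given in the sources used here. H1f4 also overlaps H2bc6 on the same strand, and H1f10 overlaps a long noncoding RNA gene on the other strand.

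The clustered histone genes took a small part of the counted fragments. The library sizes recovered from the FPKM values of the 10 samples were 16306447 to 18853726 fragments. Of these, the 64 members together took 711 to 900 in the CD8+4T1 samples and 1069 to 1553 in the CD8+4T1+NaAc samples. Replicate 1 of CD8+4T1+NaAc stood apart, with 20233 genes above 0 against 24681 to 25088 in the other 4 samples of its group, and with 19 of the 50 members at 0 against 4 to 10. Replicate 1 of CD8+4T1 lay apart from its group as well, with 22291 genes above 0 against 23786 to 24054 and with 11 of the 50 members at 0 against 2 to 6. Several of the results that these samples touch are also given below without them. The listed genes held 95.5 to 97.9% of the recovered library size in CD8+4T1 and 89.8 to 92.1% in CD8+4T1+NaAc.

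Few clustered histone genes passed the test between the groups. H1f2, the most abundant of them, and the H2B genes H2bc4 and H2bc8 rose, H2ac23 and H4c4 fell, and the other members tested did not pass the test. The 27 members with a mean of at least 0.5 FPKM entered a fit of all 15710 genes at that level (limma on log2(FPKM + 0.1), Benjamini-Hochberg adjusted p under 0.05). Of the 27, 3 were called higher (11.1%, where 17.6% of all genes tested were) and 2 lower (7.41%, where 19.0% of all genes were). In either direction this was 5 of 27, where 36.5% of all genes were called. All 3 higher calls had a log2 fold change over 1, where 4.87% of all genes were called with such a change, and of the lower calls H2ac23 lay under -1, where 1.60% of all genes were. The median log2 fold change of the 27 was -0.39, with 10 above and 17 below 0, and that of all genes was -0.02. It rested in part on replicate 1: with replicate 1 of both groups left out, the median of the same 27 was -0.13, with 12 above and 15 below 0. The estimates were imprecise: the median SE of a member's log2 fold change was 0.53, against 0.118 over all genes and 0.227 over genes of 0.5 to 4 FPKM. Most members could therefore have changed by a 2-fold difference or more without being called, and an absent call says little about them. Rescaling every sample to the same summed FPKM shifted the median log2 fold change over all genes to 0.16. It changed the calls over all genes from 2764 higher and 2978 lower to 4918 higher and 1386 lower, while the 5 members stayed called in the same direction.

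**Figure D1:**
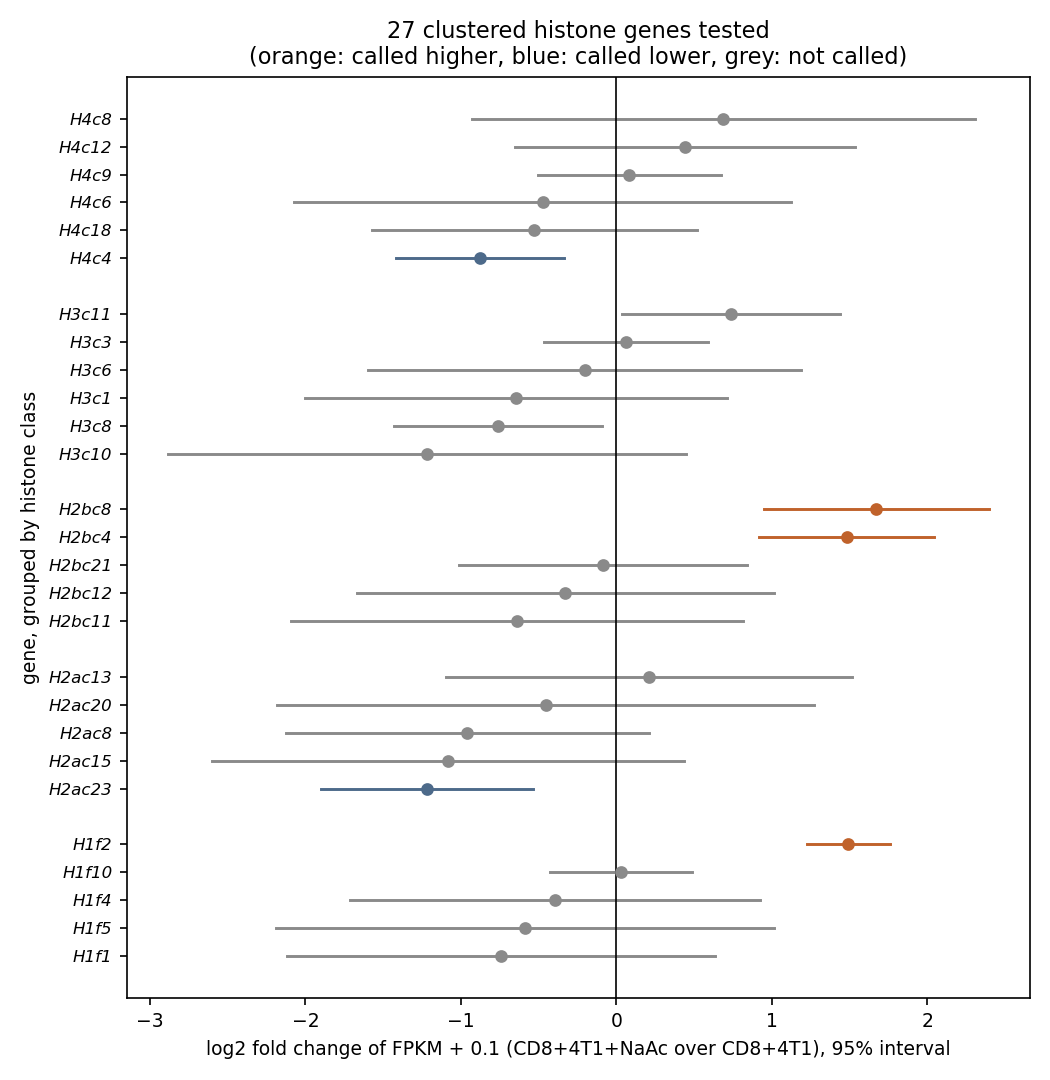
Log2 fold change (FPKM + 0.1, CD8+4T1+NaAc over CD8+4T1) of the 27 members tested, grouped by histone class. Points are estimates from 5 samples a group, lines are 95% intervals, and colours mark adjusted p under 0.05 by limma. H1f2, H2bc4 and H2bc8 stand to the right of 0, H2ac23 and H4c4 to the left, and the other 22 intervals are mostly wide.

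Among the linker histones, H1f2 was high in all acetate samples. H1f2 (ENSMUSG00000036181, listed at chr13:23922791-23924350 on the plus strand, a single exon) codes for H1.2, one of the main linker histones of somatic cells. Its FPKM was 8.59, 7.86, 10.4, 9.45 and 9.63 in the CD8+4T1 samples and 25.1, 22.8, 27.4, 34.2 and 21.8 in the CD8+4T1+NaAc samples. The lowest acetate sample lay at more than 2 times the highest sample without acetate, and the groups did not overlap. The mean went from 9.18 ± 0.974 to 26.2 ± 4.94 FPKM (SD, n = 5 each), a ratio of 2.86, with a log2 fold change of 1.49 (SE 0.12, adjusted p = 2.01e-05 by limma). Without replicate 1 of both groups it was 1.48. H1f2 alone took 27.0 to 34.9% of the fragments of the 64 members without acetate and 48.4 to 58.1% with it.

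The other H1 genes did not follow. H1f10, the linker histone from outside the clusters, had 6.15, 4.85, 4.23, 6.83 and 4.13 FPKM without acetate and 3.17, 6.84, 5.92, 5.68 and 5.39 with it. Its groups overlapped, and its log2 fold change was 0.03 with a 95% interval from -0.43 to 0.49. H1f5, which codes for H1.5, had 1.69, 1.23, 1.16, 1.06 and 1.06 FPKM against 0, 0.928, 1.22, 2.15 and 1.62. The spread within the acetate group, from 0 to 2.15, was wider than any difference between the groups. H1f1 and H1f4 were tested as well, at -0.74 and -0.39, and each was at 0 in replicate 1 of CD8+4T1+NaAc and above 0 in all others. Without replicate 1 of both groups H1f1 was at -0.17 and H1f4 at 0.067. H1f3 was too low to be tested, with 0.101 and 0.133 FPKM. Without H1f2 and H1f10, the 4 remaining H1 genes summed to 2.85 ± 0.143 and 2.56 ± 1.44 FPKM.

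Among the H2B genes, H2bc8 and H2bc4 rose. H2bc8 (ENSMUSG00000058385, chr13:23755570-23756187, plus strand) had 0.872, 0.835, 1.79, 1.37 and 1.37 FPKM without acetate and 7.76, 2.75, 5.10, 4.40 and 2.24 with it. The acetate samples spread by more than 3-fold, with replicate 1 the highest, and all 5 lay above every sample without acetate. The log2 fold change was 1.67 (SE 0.33, adjusted p = 0.00248 by limma), and 1.34 without replicate 1 of both groups (adjusted p = 0.00651).

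H2bc4 (ENSMUSG00000018102, chr13:23868182-23876891, plus strand) had 0.725, 1.49, 1.59, 1.99 and 0.786 FPKM without acetate and 2.98, 4.08, 3.98, 3.99 and 3.13 with it. Here too the groups did not overlap, and the mean went from 1.32 ± 0.547 to 3.63 ± 0.532 FPKM. The log2 fold change was 1.48 (SE 0.26, adjusted p = 0.00116 by limma). H2bc4 and H2bc8 share part of their sequence, so part of the fragments given to either could belong to the other. All 3 genes called higher had groups that did not overlap, as had 13.1% of all genes tested in that direction.

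H2bc21, the most abundant H2B gene of the chromosome 3 cluster, had 1.71, 1.27, 0.936, 1.32 and 0.393 FPKM without acetate and 0.893, 1.15, 1.09, 1.83 and 0.368 with it. Its values lay in the same range in both groups, and the 95% interval of its log2 fold change ran from -1.01 to 0.84. H2bc12 and H2bc11 had log2 fold changes of -0.33 and -0.64 and were not called. Over the fits without 1 sample, H2bc11 ranged from -0.98 to -0.10. The other 9 reported H2B genes were below 0.5 FPKM, from 0.450 for H2bc14 to 0.109 for H2bc13. Without H2bc4 and H2bc8, the 12 remaining H2B genes summed to 4.01 ± 1.09 FPKM in CD8+4T1 and 4.26 ± 0.960 in CD8+4T1+NaAc, which is within the spread of either group.

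**Figure D2:**
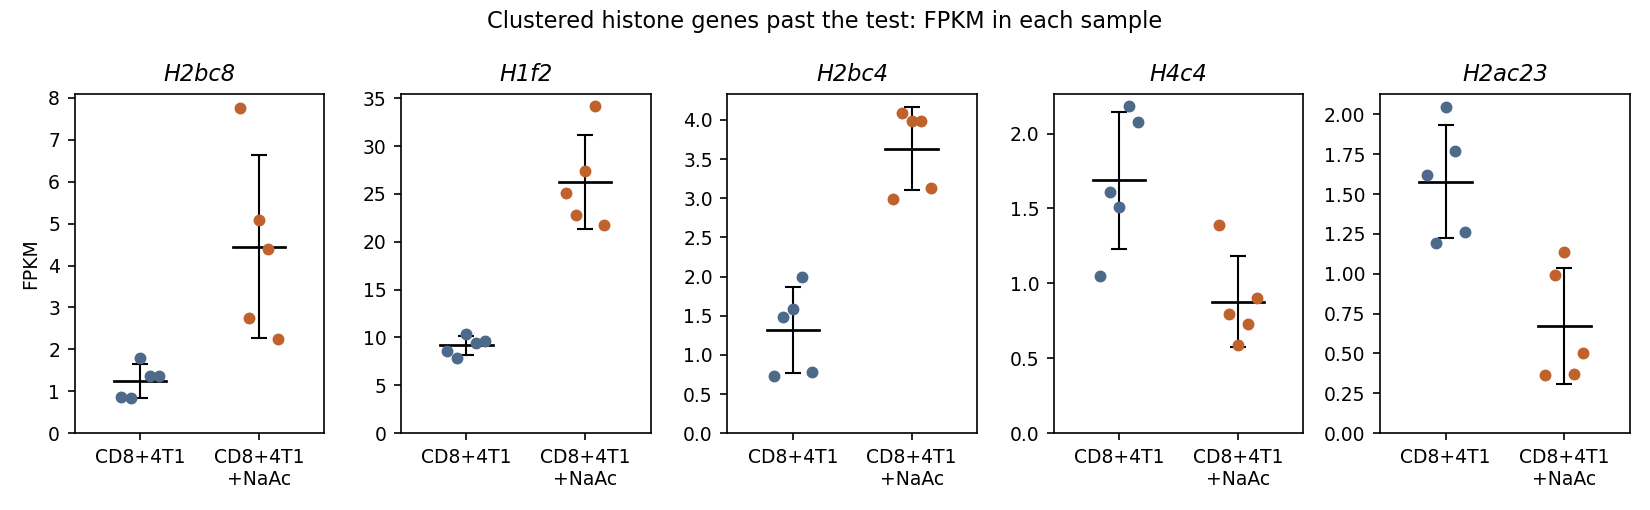
FPKM of the 5 members past the test in each sample (points), with the mean and SD of 5 samples (line and bar), each panel on its own axis from 0. H2bc8, H1f2 and H2bc4 show no overlap between the groups and are higher with acetate. H2ac23 shows none and is lower. In H4c4, the highest acetate sample, replicate 1, lies above the lowest sample without acetate.

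Among the H2A genes, H2ac23 fell. H2ac23 (ENSMUSG00000094248, chr13:21994635-21995114, plus strand) had 1.62, 1.19, 2.04, 1.77 and 1.26 FPKM without acetate and 0.366, 0.995, 1.14, 0.369 and 0.502 with it. The groups came close, with 1.14 FPKM at the top of one and 1.19 at the bottom of the other, and did not overlap (13.3% of all genes tested had such groups in this direction). The log2 fold change was -1.22 (SE 0.31, adjusted p = 0.0102 by limma). It rested on 63 fragments over the 5 samples without acetate and 28 with it, and nearly all of its sequence occurs in other H2A genes, so this value may describe a group of copies.

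The other H2A genes tested were not called. H2ac15 had 1.83, 1.31, 0.624, 0.618 and 0.771 FPKM without acetate and 0, 0.810, 1.85, 0.301 and 0.306 with it. H2ac13 had 0.457, 1.90, 0.312, 0.772 and 0.154 FPKM against 1.93, 0.270, 0.617, 0.451 and 0.613. Each group of H2ac13 held a single high sample, and the log2 fold change changed sign when replicate 1 of CD8+4T1+NaAc was left out (0.21 with it, -0.16 without). H2ac8 and H2ac20 had log2 fold changes of -0.96 and -0.45. H2ac8 was at 0 in replicate 1 of CD8+4T1+NaAc, and without replicate 1 of both groups it was at -0.50. Among H2A genes too low to be tested, H2ac11 had 17 fragments over the 5 samples without acetate and 0 over the 5 with it. A sample without acetate was at 0 as well, and replicate 3 of CD8+4T1 held 9 of the 17 fragments. H2ac11 passed the threshold of 0.1 FPKM through the samples without acetate alone, so no fold is drawn from it. Of its 100-base windows, 76.2% occur in other genes. The H2A genes too low to be tested went both ways, with H2ac22 at 24 fragments without acetate and 6 with it, and H2ac7 at 7 and 23.

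No H3 gene was called. H3c11 had 3.06, 1.39, 2.69, 1.33 and 1.33 FPKM without acetate and 4.98, 4.65, 2.36, 2.16 and 2.49 with it. All acetate samples lay above 3 of the 5 samples without acetate. The log2 fold change was 0.74 with a 95% interval from 0.04 to 1.44 (adjusted p = 0.0934 by limma), and without replicate 1 of CD8+4T1 it was 0.92, past the threshold (adjusted p = 0.0451).

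H3c10 had 1.89, 1.39, 3.13, 1.62 and 1.47 FPKM without acetate and 0, 2.45, 1.47, 1.29 and 0.586 with it. H3c8 had 1.47, 1.62, 0.810, 2.29 and 2.06 FPKM against 1.10, 0.801, 1.14, 1.12 and 0.454. In H3c8, replicate 3 of CD8+4T1 was the lone sample without acetate that fell among the acetate samples. Its log2 fold change was -0.76 (adjusted p = 0.0722 by limma), and -0.98 without that sample (adjusted p = 0.0189). H3c3, H3c1 and H3c6 were at 0.06, -0.64 and -0.20 on the log2 scale, with intervals that span 0.

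Among the H4 genes, H4c4 fell. H4c4 (ENSMUSG00000061482, chr13:23765581-23766718, plus strand) had 1.052, 1.61, 1.51, 2.19 and 2.08 FPKM without acetate and 1.39, 0.792, 0.586, 0.727 and 0.900 with it. The groups overlapped through their replicates 1, the lowest sample of one group and the highest of the other. The log2 fold change was -0.88 (SE 0.24, adjusted p = 0.0163 by limma), and -1.19 without replicate 1 of both groups. With the replicate number as a block the adjusted p was 0.0520. None of the 100-base windows of its model occurs in another gene.

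The most abundant H4 gene, H4c9, had 3.70, 4.34, 4.05, 3.26 and 2.08 FPKM without acetate and 6.76, 2.63, 3.50, 3.50 and 2.73 with it. Replicate 1 of CD8+4T1+NaAc was again far above its group. The same sample was the highest for H4c12, with 0.575, 1.84, 2.95, 1.75 and 2.91 FPKM without acetate and 5.998, 1.02, 2.52, 2.27 and 2.32 with it. For H4c18 it was the highest too, at 1.95, 1.20, 2.995, 4.23 and 2.96 FPKM against 5.03, 0.740, 1.97, 1.51 and 1.12. The 95% intervals of the 3 log2 fold changes were -0.50 to 0.67, -0.65 to 1.53 and -1.57 to 0.52. H4c8 and H4c6 had log2 fold changes of 0.69 and -0.47 and were not called.

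Summed by class, acetate samples were higher for H1 and H2B, lower for H2A, and similar for H3 and H4. Such sums are less exposed to fragments that fit several copies of a class only if these were given to a copy and not dropped, which is not known. The sums are given as a description with no test. The H1 genes summed to 17.3 ± 1.46 FPKM without acetate and 34.2 ± 6.24 with it, and the H2B genes to 6.57 ± 1.17 and 12.3 ± 2.82, with no overlap between the groups in either class. The H1 sum includes H1f10 from outside the clusters, with 5.24 ± 1.20 FPKM without acetate and 5.40 ± 1.36 with it. The H2A genes summed to 6.73 ± 1.37 and 4.48 ± 1.09 FPKM, and the groups overlapped. H3 stood at 8.11 ± 1.23 and 8.12 ± 1.71 FPKM. H4 stood at 12.96 ± 2.87 and 13.1 ± 7.42 FPKM, where replicate 1 of CD8+4T1+NaAc was at 26.3 and the other acetate samples at 8.90 to 10.8. The ratio of the H4 means was 1.01, and 0.756 without that sample.

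**Figure D3:**
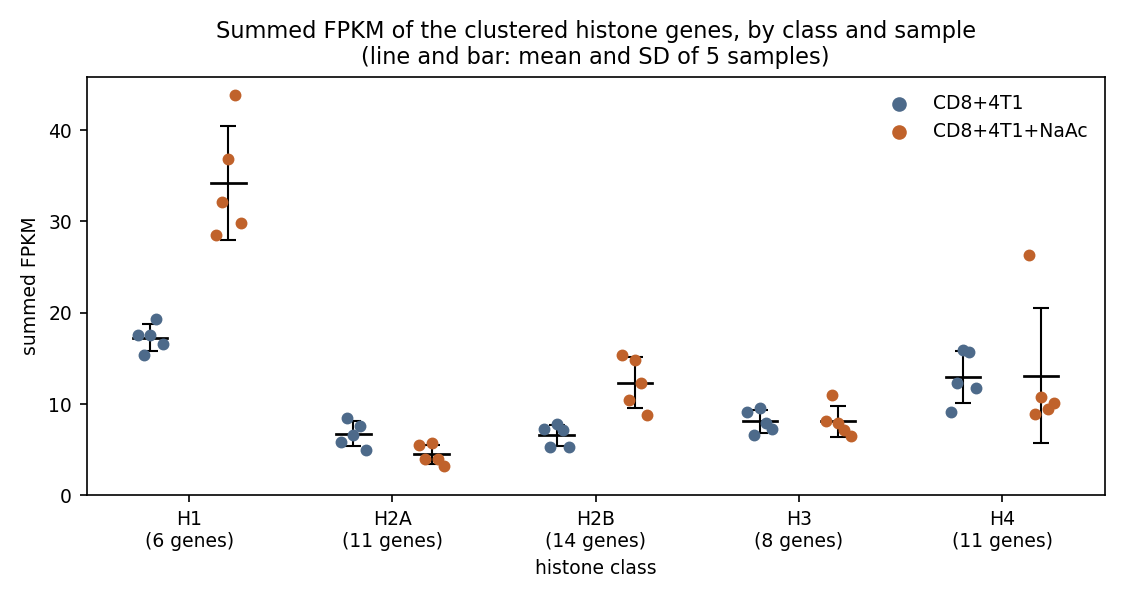
Summed FPKM of the members of each histone class in each of the 10 samples (points), with the mean and SD of each group of 5 (line and bar). The H1 sum includes H1f10 from outside the clusters. The H1 and H2B sums do not overlap between the groups, and the single high point of H4 is replicate 1 of CD8+4T1+NaAc at 26.3 FPKM.

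All 50 members together, H1f10 among them, summed to 51.6 ± 5.57 FPKM without acetate and 72.2 ± 9.89 with it, a ratio of 1.399. Without H1f2 the sums were 42.5 ± 5.09 and 46.0 ± 8.26 FPKM, a ratio of 1.08. Without the 5 called genes and H1f10 they were 31.4 ± 3.68 and 30.96 ± 7.22 FPKM. The higher total with acetate was thus carried largely by H1f2, with smaller parts from H2bc4 and H2bc8, and these last sums were drawn up after the calls were known.

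**Figure D4:**
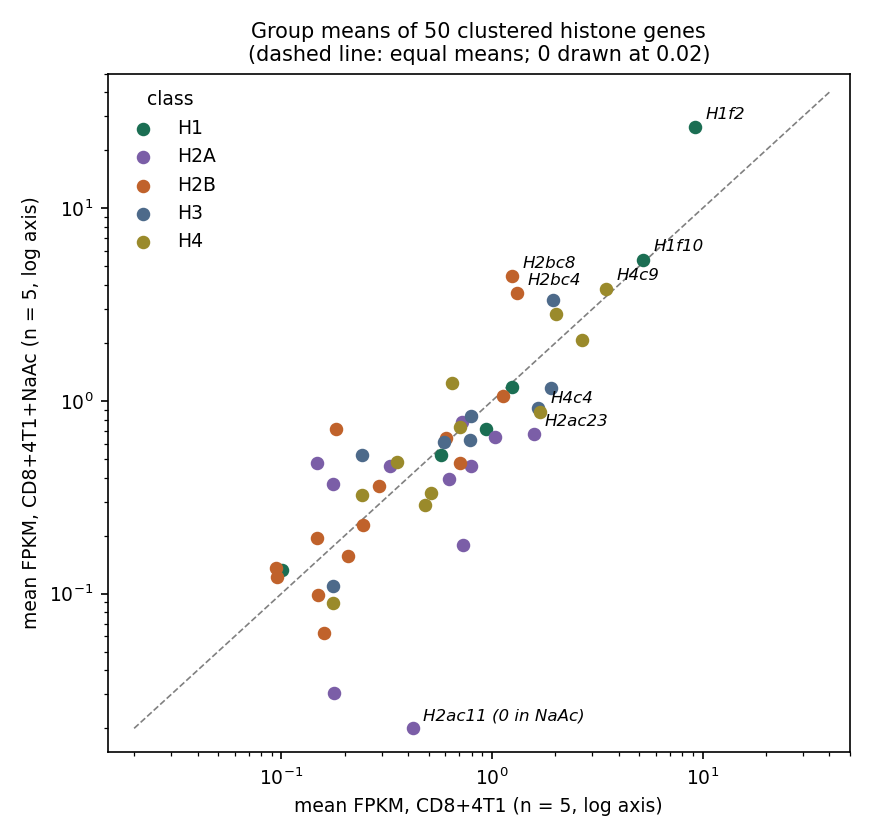
Mean FPKM of each of the 50 members in CD8+4T1 (horizontal, log axis) and in CD8+4T1+NaAc (vertical, log axis), coloured by class, with equal means on the dashed line. H1f2 is the most abundant in both groups, H2bc8 and H2bc4 lie above the line, and H2ac11, at 0 in all acetate samples, is drawn at 0.02.

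Many clustered histone genes lie head to head, so that the start sites of 2 genes, most often an H2A and an H2B gene, face away from a shared stretch of DNA. By this layout 13 pairs of members were found, with 175 to 659 bases between the genes, all of them pairs of different classes. No partner of a called gene was itself called, and 2 of the 3 such partners were too low to test. This says little about partners, as 36.5% of all genes tested were called in either direction. H2ac8, 175 bases from H2bc8, had 0.799 ± 0.154 FPKM without acetate and 0.459 ± 0.272 with it (log2 fold change -0.96, adjusted p = 0.183 by limma). Without replicate 1 of both groups its log2 fold change was -0.50. H2ac6, 250 bases from H2bc4, was at 0.0666 and 0.130 FPKM, and H2bc23, 267 bases from H2ac23, was at 0.150 and 0.0985 FPKM, both too low to be tested. In only 2 of the 13 pairs were both genes tested.

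The calls could also be set beside the form of the gene models. Of the 7 tested members whose model runs over 100 bases past the stem-loop, 2 were called higher (H1f2 and H2bc8) and 1 lower (H4c4). Of the 10 tested members whose model ends within 100 bases of it, none was called higher and 1 lower (H2ac23). Of the 5 with no stem-loop in the model, H2bc4 was called higher, and of the 5 with the coding length only none was called. Of all genes tested, 17.6% were called higher and 19.0% lower. These groups are small, and no difference between them was tested.

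Promoters are shown for 4 of the 5 called genes, to set the upstream sequences of genes that rose and fell side by side. They are the 200 bases before each annotated start in RefSeq (build GRCm38.p6), read 5′ to 3′ on the plus strand, with exact matches to TATAAA (the TATA box), ATTTGCAT (the octamer bound by Oct factors) and CCAAT, on either strand, in capitals. H1f2 lies at chr13:23738607-23738806, H2bc8 at chr13:23571200-23571399, H2ac23 at chr13:21810167-21810366 and H4c4 at chr13:23581368-23581567. These positions belong to GRCm38.p6 and differ from those listed with the FPKM values above, whose build is not given in the sources used here. The offset between the RefSeq start and the listed gene start was not the same in the 4 genes. The stretches thus do not lie at equal places relative to the gene models that were counted.

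H1f2: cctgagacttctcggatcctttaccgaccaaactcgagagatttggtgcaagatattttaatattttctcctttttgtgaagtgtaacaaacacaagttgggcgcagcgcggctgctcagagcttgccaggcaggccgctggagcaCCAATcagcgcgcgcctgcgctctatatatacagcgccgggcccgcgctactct

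H2bc8: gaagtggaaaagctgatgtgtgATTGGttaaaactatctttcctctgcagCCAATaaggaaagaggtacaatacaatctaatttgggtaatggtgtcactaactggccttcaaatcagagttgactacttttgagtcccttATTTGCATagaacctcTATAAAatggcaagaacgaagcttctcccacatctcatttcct

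H2ac23: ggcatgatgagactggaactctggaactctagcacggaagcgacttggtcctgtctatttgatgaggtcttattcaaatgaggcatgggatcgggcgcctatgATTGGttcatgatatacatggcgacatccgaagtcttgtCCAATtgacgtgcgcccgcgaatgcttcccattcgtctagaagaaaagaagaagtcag

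H4c4: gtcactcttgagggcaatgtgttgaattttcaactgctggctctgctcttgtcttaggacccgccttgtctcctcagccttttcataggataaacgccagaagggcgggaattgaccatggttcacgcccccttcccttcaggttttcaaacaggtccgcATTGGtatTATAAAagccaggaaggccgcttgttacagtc

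H2bc8 holds an octamer that begins 59 bases before the start and a TATAAA that begins 43 bases before it. H4c4 holds TATAAA 32 bases before its start, and H1f2 holds CCAAT 54 bases before its own. In H2ac23 a further CCAAT begins at the annotated start itself, just outside the bases shown. The matches do not overlap one another. The RefSeq table held a promoter for 58 of the 64 members (59 promoters), and H2bc4 was not among them. In windows from 250 bases before to 50 after the start, TATAAA occurred in 34 of the 59 (57.6%), against 13.6% of all 32851 promoters in the table. The octamer occurred in 13 of the 59 (22.03%) against 1.74% of all, in 6 of 17 H2A and 7 of 15 H2B promoters and in none of the H1, H3 and H4 promoters. CCAAT occurred in 50 of the 59 (84.7%) against 37.4% of all, and in 3 of the 11 H4 promoters. A match is a description of the sequence only.

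Other histone genes, listed as replication-independent, can be expressed outside S phase, and some of them, H2ax among these, also give S-phase mRNA with a stem-loop. Of 11 tested, 2 were called higher and 3 lower (17.6% and 19.0% of all genes were), with a median log2 fold change of -0.11. H2ax, the variant phosphorylated at DNA breaks, rose from 14.5 ± 0.511 to 26.2 ± 2.94 FPKM (log2 fold change 0.84, adjusted p = 3.18e-05 by limma). Cenpa, the H3 variant of centromeres, rose by 0.54. H2aj fell by 0.90 (by 1.16 without replicate 1 of both groups), H2az2 by 0.32 and H3f3b, which codes for H3.3 and was the most abundant with 217.9 ± 4.57 FPKM without acetate, by 0.14 on the log2 scale. When samples were scaled to equal summed FPKM, H2az2 at -0.15 (adjusted p = 0.197 by limma) and H3f3b at 0.034 (adjusted p = 0.563) were not called, and H3f3b also missed the threshold in some fits without 1 sample. H1f0, the linker histone of resting cells, had 49.1 ± 4.30 and 69.2 ± 25.6 FPKM and was not called (log2 fold change 0.44, adjusted p = 0.0918). Replicate 1 of CD8+4T1+NaAc was its highest sample at 114.3 FPKM, and without replicate 1 of both groups its log2 fold change was 0.25 and passed the test (adjusted p = 0.0417 by limma).

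Of 32 tested genes for the 3′ end formation and the transcription of histone mRNA, 3 were called higher and 17 lower (17.6% and 19.0% of all genes were), and the median was -0.20. These counts depended on the scaling: with that rescaling they were 8 and 6. The lower calls included Slbp, which binds the stem-loop (18.4 ± 0.929 to 15.6 ± 1.26 FPKM, log2 fold change -0.24). They also included Sm protein genes whose products sit in U7 as well as in the spliceosome, such as Snrpf at -1.48 and Snrpd3 at -1.11, and the exonuclease gene Eri1 at -0.25. Lsm11, a protein found in U7 and not in the spliceosome, was called higher at 0.27, and its partner Lsm10 lower at -0.28. With rescaling Slbp (-0.067, adjusted p = 0.484 by limma), Eri1 (-0.073, adjusted p = 0.284) and Lsm10 (-0.11, adjusted p = 0.349) were not called. Lsm11 and Lsm10 also missed the threshold in several other fits, with no filter on low values and with the replicate block among them. Npat, the coactivator of clustered histone genes, was at 8.69 ± 0.968 and 8.85 ± 1.49 FPKM with a log2 fold change of 0.02 and was not called.

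Of 28 tested genes for histone chaperones and deposition, 2 were called higher and 8 lower (17.6% and 19.0% of all genes were), with a median of -0.09. With rescaling to the same total the counts were 9 and 5. Over the fits that each left out 1 sample, 0 to 4 were called higher, with 4 without replicate 1 of CD8+4T1+NaAc, 3 without replicate 1 of CD8+4T1, 2 without replicate 2 of CD8+4T1+NaAc and 0 or 1 in the others. Hat1, which acetylates new H4, fell by 0.60, Anp32e, a chaperone of H2A.Z, by 0.52, and Anp32b, with 225.4 FPKM without acetate the most abundant of the list, by 0.45 on the log2 scale. Asf1b and Chaf1a, which hand over H3 and H4 during DNA copying, were at 0.09 and 0.12 and were not called, although Asf1b passed without replicate 1 of both groups (0.19, adjusted p = 0.0354 by limma).

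Of 32 tested S-phase genes, 3 were called higher and 8 lower (17.6% and 19.0% of all genes were), and the median was -0.05. With rescaling to the same total the counts were 11 and 3. Single samples moved them too: 6 were called higher without replicate 1 of CD8+4T1+NaAc, and the lower count was 4 without replicate 5 of CD8+4T1 and 5 without replicate 3 of CD8+4T1+NaAc. Cdt1, which licenses origins, rose by 0.54, Ccne1, a cyclin of S-phase entry, by 0.46, and E2f1, a transcription factor of S-phase genes, by 0.39 on the log2 scale, while Rfc3, a subunit of the clamp loader, fell by 0.51 and Cdc45, a helicase factor, by 0.49. Pcna and Mcm3, the most abundant of the list, were at -0.30 and -0.08 and were not called. Without replicate 1 of both groups Pcna was at -0.23 and passed the test (adjusted p = 0.0129 by limma).

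Other RNAs without a poly(A) tail were hardly seen: of 23 such genes in the table, 13 were at 0 in all samples, and the list summed to 16.01 to 30.1 FPKM without acetate and 12.02 to 19.6 with it. Of 6 tested, Rnu1a1, an RNA of the U1 spliceosome particle, was called lower (log2 fold change -1.55, where 19.0% of all genes were called lower), with an adjusted p of up to 0.0655 by limma when 1 sample was left out. Neither the labels nor the methods say whether the RNA was selected by its tail, and the part of any such step in the members' levels was not tested.

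**Figure D5:**
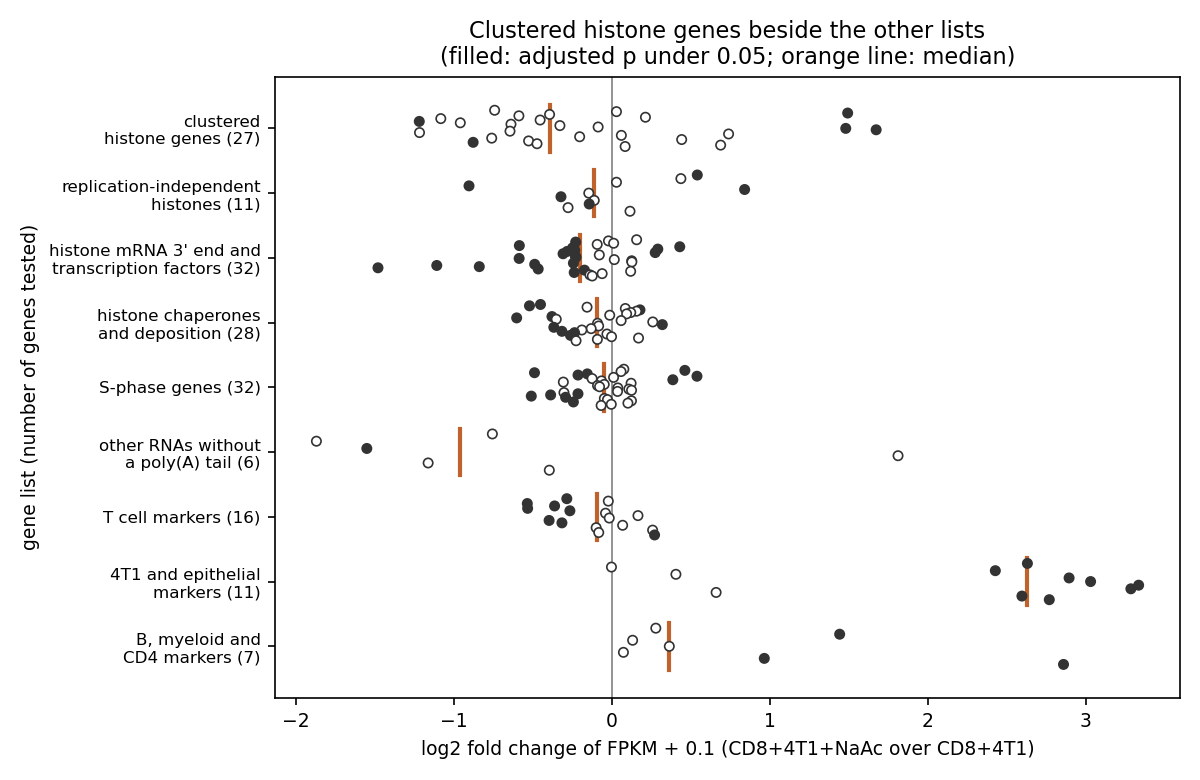
Log2 fold changes (FPKM + 0.1, CD8+4T1+NaAc over CD8+4T1) of the clustered histone genes and of the other lists, 1 point per gene tested, filled where adjusted p was under 0.05 by limma, with the median of each list as an orange line. The clustered histone genes have a median of -0.39 (-0.13 without replicate 1 of both groups) with 3 filled points above 1, and 8 of 11 markers of 4T1 cells are filled and above 2. H1f10 is drawn both as a clustered gene and as a replication-independent one.

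Markers of 4T1 cells moved with the treatment, although the T cells had been purified before RNA was taken. Of 20 epithelial marker genes, 11 were tested and 8 were called higher with acetate (17.6% of all genes were), with a median log2 fold change of 2.63. The 20 summed to 25.1 to 40.1 FPKM without acetate and 146 to 333 with it, and Krt20 was the only one at 0 in all samples without acetate. Krt8, a keratin of simple epithelia, went from 3.42 ± 1.69 to 34.2 ± 13.1 FPKM, and Spp1 from 12.7 ± 1.91 to 78.5 ± 18.6. In bulk RNA, more cells of a type and more RNA per cell cannot be told apart, and the part of this RNA in the higher levels of H1f2, H2bc4 and H2bc8 was not tested.

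Markers of T cells, the labelled cell type, were high in both groups, at 1500 to 1676 FPKM summed over 16 genes without acetate and 1267 to 1611 with it. Of the 16, 1 was called higher and 7 lower (17.6% and 19.0% of all genes were), and with rescaling 6 higher and 5 lower. The higher count was 3 without replicate 1 of CD8+4T1+NaAc and 0 without replicate 2 of CD8+4T1 or without replicate 3, 4 or 5 of CD8+4T1+NaAc. Cd8a had 78.6 ± 2.34 and 76.5 ± 4.37 FPKM, and Cd3d fell by 0.54 on the log2 scale. Of 16 markers of B, myeloid and CD4 T cells, 7 were tested and 3 were called higher (Lyz2, S100a8 and Cd4, of which Lyz2 missed the threshold in some fits without 1 sample), with sums of 9.17 to 13.03 FPKM without acetate and 15.99 to 18.9 with it, and S100a9 was at 0 in all samples. Their part in the members' levels was not tested either.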

How the data were processed

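RNA of 5 CD8+4T1 and 5 CD8+4T1+NaAc samples was prepared by the authors with a NEBNext Ultra kit and sequenced on a NovaSeq instrument. Per the labels, fastp, HISAT2 2.0.5, StringTie 1.3.3b and featureCounts 1.5.0-p3 were used. The genome build, poly(A) selection, strand setting and the counting of fragments that fit several genes are not given in the sources used here. The authors deposited FPKM per gene, together with gene lengths and positions (other listed values), for 57825 genes. Values times gene length were whole multiples of 1 fragment within 0.1 for 100% of values above 0, which gave the fragments quoted. The library sizes were recovered from the same scaling, and which fragments the authors counted into them is not given.

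Genes averaging 0.5 FPKM or more over the 10 samples were fitted as log2(FPKM + 0.1) with limma 3.58.1 in R 4.3.3 (trend and robust moderation, no covariate), and p-values were adjusted by Benjamini-Hochberg over all 15710 genes, with calls at 0.05. The script was tested on simulated data. Tables and plots were made in Python 3.11.15 with pandas 2.3.3 and matplotlib 3.10.9. The samples with equal replicate numbers did not deviate together (correlations of -0.028 to 0.069), so the numbers were not taken as pairs.

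The members and all gene lists were chosen with earlier results of these data known. Named with values were each called member, the 3 with the highest mean of each class (with every sample), the members next to the 0.1 FPKM threshold, and up to 6 genes of each other list (the largest called changes and the highest means); Slbp, Lsm11, Lsm10, Eri1, Npat, Asf1b, Chaf1a, H1f0 and further members were added for their roles. Stem-loops were read from GENCODE M21 (GRCm38) models and promoters from RefSeq. No listed member position equalled its GRCm38 position, while all 64 spans were of equal size. Alternatives were other pseudocounts (1 and 0.01), filters (none, 0.1 and 5 FPKM), scalings, moderation, sample weights, a replicate block, voom on recovered fragments and leaving out samples. Counting of members without H1f10 was added after the data were seen. Intervals cover the spread between samples only.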

Additional observations from a re-analysis of the deposited data

Results flagged for a closer look

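In 9 of 60 groups of 5 values checked (each in both groups: the named members, their sums, the fragments of a library, the listed share of these, genes above 0, summed FPKM, members at 0, the members' fragments and the share of H1f2 in them), the highest or the lowest sample lay apart from the other 4 by more than 0.71 of the group's whole range, where chance alone would give about 3 over both ends. The checks of fragments, listed share, genes above 0 and summed FPKM were added after the data were seen. Of the 9, 5 were replicate 1 of CD8+4T1+NaAc. It was lowest for genes above 0, with 20233 (others 24681 to 25088), and highest for H4c9 with 6.76 FPKM (others 2.63 to 3.50), for H4c18 with 5.03 (0.740 to 1.97), for H2ac13 with 1.93 (0.270 to 0.617) and for the summed H4 genes with 26.3 (8.90 to 10.8). The H4 sum is not independent of H4c9 and H4c18. Members at 0 were checked over the 50 reported members. Over all 64 members, replicate 1 of CD8+4T1+NaAc had 33 at 0, against 15 to 19 in the other samples of its group. That gap was also above 0.71 of the range and is not among the 9. The other high samples were replicate 3 of CD8+4T1 for H3c10, with 3.13 FPKM against 1.39 to 1.89, and replicate 1 of CD8+4T1 for H1f5, with 1.69 FPKM against 1.06 to 1.23. The last of these libraries was also the lowest of its group in genes above 0, with 22291 against 23786 to 24054. Replicate 2 of CD8+4T1+NaAc had the largest recovered library size of its group, 18853726 fragments against 16503701 to 17098249. No cause was tested.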

How the results depend on the processing

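The counts of members called higher (3) and lower (2) were 3 or 4 and 2 or 3 under most alternatives. With a filter of a mean of at least 5 FPKM they were 1 and 0, because H1f2 and H1f10 alone were left to test. With the replicate block the lower count was 1, H4c4 missing the threshold (adjusted p = 0.0520), and no other call changed. Over the fits that each left out 1 sample, the higher count was 3 to 4 and the lower 2 to 3. H3c11 was called with rescaling to the same total (0.91) and without replicate 1 of CD8+4T1, and H3c8 without replicate 3 of CD8+4T1. No called member changed direction. Over the alternatives the log2 fold change of H2ac23 ran from -1.42 to -0.64, so it did not always lie under -1. That of H4c4 ran from -1.19 to -0.51. The 5 class sums and the total stayed within the replicate spread under every alternative run. Without H1f10 the counts were unchanged.

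Members that were not called changed sign as follows, in log2 fold changes. With sample weights H1f5 was at 0.12, H1f4 at 0.25, H2bc21 at 0.12, H2bc12 at 0.22, H3c3 at -0.0021, H3c1 at 0.042, H3c6 at 0.14 and H4c9 at -0.072. With replicate 1 of both groups left out, H1f5 was at 0.31, H1f4 at 0.067, H2ac13 at -0.20, H2bc21 at 0.11, H2bc12 at 0.36, H3c1 at 0.13, H3c6 at 0.16, H4c9 at -0.11, H4c12 at -0.24 and H4c8 at -0.13. With rescaling H2bc21 was at 0.072, and with a pseudocount of 1 H3c6 was at 0.0021. Over the fits without 1 sample, H1f10 ranged from -0.066 to 0.21, H1f4 from -0.65 to 0.18, H1f5 from -0.93 to 0.20, H2ac13 from -0.16 to 0.63, H2ac20 from -1.07 to 0.046, H2bc12 from -0.65 to 0.29, H2bc21 from -0.38 to 0.21, H3c3 from -0.088 to 0.18, H3c6 from -0.46 to 0.42, H4c6 from -0.86 to 0.14 and H4c9 from -0.14 to 0.19. The cause was not tested.

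Depth limits most members: together the 64 held at most 1553 fragments in a sample, and 23 of the 50 reported were too low to test.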
